A study of Mus musculus with 5 samples.

Results

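Transcripts of 10 enzymes that make, desaturate and elongate fatty acids were followed in ID8 cells, a mouse ovarian surface epithelial cancer line that grows in the peritoneum and gives rise to ascites in mice. All 21 probe sets that the platform annotation assigned to exactly 1 of these genes were taken, of 22626 probe sets tested, and 0 probe sets joined a member with another gene. They split into 9 probe sets of 4 de novo synthesis genes (Acly, Acss2, Acaca and Fasn) and 12 probe sets of 6 desaturase and elongase genes (Scd1, Scd2, Fads1, Fads2, Elovl5 and Elovl6). The ASid8 group held 2 arrays of ID8 cells kept in DMEM with 10% ascites fluid from mice bearing ID8 tumours, for 7 days, and the id8 group held 3 arrays of parental ID8 cells kept in DMEM with 10% FBS. The ASid8 arrays carry the replicate numbers 2 and 3 in their titles and the id8 arrays the numbers 1, 2 and 3. The labels do not settle whether the ascites medium also held FBS, or how long the id8 culture lasted, so ascites and the lack of serum cannot be told apart. Nothing in them says that the arrays came from separate cultures, and p-values then reflect array-to-array spread alone, some or all of which may be technical.

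Fatty acids are built in the cytosol from acetyl-CoA, which ATP citrate lyase (Acly) makes from citrate and acyl-CoA synthetase short-chain family member 2 (Acss2) makes from acetate. Acetyl-CoA carboxylase alpha (Acaca) turns it into malonyl-CoA, and fatty acid synthase (Fasn) joins these units into palmitate. Elovl6 lengthens palmitate, and the stearoyl-CoA desaturases (Scd1 and Scd2) put the first double bond into saturated chains to give monounsaturated fatty acids such as oleate. The desaturases Fads2 and Fads1 and the elongase Elovl5 work in turn on essential fatty acids from the diet or medium and yield long polyunsaturated fatty acids such as arachidonate. Many of these genes are known targets of the SREBP transcription factors, whose activation is held back when cells hold enough sterol or polyunsaturated fatty acid.

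The RefSeq promoter table (GRCm38.p6) held 7 of the 10 genes. Scd1, Scd2 and Fads1 were not matched. The windows of Fasn and Acaca lie inside the genes' RefSeq intervals, downstream of their 5′ ends, and are not shown. The 250 bases before the listed start are shown for Fads2 and Elovl5, which fell in ascites, and for Acly, which did not pass the test, each on the strand of its gene, 5′ to 3′. The Fads2 window is chr19:10101504-10101753 (minus strand), that of Elovl5 chr9:77917115-77917364 (plus strand) and that of Acly chr11:100528001-100528250 (minus strand). Capitals mark CCAAT (the NF-Y box), GGGCGG (the GC box bound by Sp1) and CACGTG (an E-box), searched on both strands, so that CCAAT also appears as ATTGG and GGGCGG as CCGCCC.
Fads2: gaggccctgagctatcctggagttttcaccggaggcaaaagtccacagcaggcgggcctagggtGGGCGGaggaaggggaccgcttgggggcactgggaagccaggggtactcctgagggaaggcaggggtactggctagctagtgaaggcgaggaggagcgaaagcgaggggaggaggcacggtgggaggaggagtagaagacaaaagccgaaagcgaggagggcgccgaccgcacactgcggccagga
Elovl5: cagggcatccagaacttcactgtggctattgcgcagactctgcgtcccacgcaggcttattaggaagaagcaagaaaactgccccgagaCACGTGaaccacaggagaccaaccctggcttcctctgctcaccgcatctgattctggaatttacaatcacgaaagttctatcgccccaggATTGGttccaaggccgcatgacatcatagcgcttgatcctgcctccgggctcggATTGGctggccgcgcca
Acly: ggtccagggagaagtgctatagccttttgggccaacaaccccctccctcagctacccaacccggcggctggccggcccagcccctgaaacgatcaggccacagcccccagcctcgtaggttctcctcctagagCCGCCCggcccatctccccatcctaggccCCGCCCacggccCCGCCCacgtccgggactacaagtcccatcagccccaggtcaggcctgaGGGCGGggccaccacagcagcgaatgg
Fads2 held 1 GGGCGG, Elovl5 held 2 CCAAT and 1 CACGTG, and Acly held 4 GGGCGG. Of 32851 promoter windows of the same length, 33.8% held CCAAT, 32.7% GGGCGG and 6.02% CACGTG. The sterol regulatory element form TCACNCCAC was in 1.05% of windows and in 0 of the 7 members' windows, those of Fasn and Acaca included. These matches describe the letters in the windows and were not tested as binding sites.

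All values are deposited log2 signals, changes are ASid8 minus id8 on that scale, and where 1 probe set stands for a gene it is the brightest, the one with the highest mean over all arrays. The id8 arrays did not lie together: id8 replicates 1 and 2 differed by an SD of 0.13 over all probe sets, whereas id8 replicate 3 differed from them by SDs of 0.411 and 0.406 and the ASid8 arrays differed from each other by 0.236. Markers listed for the ID8 line (keratins and mesothelial genes) were mostly lower in ascites: of 9 measured, 7 were lower on average, 6 had an unadjusted p under 0.05 and 2 passed the test, Krt18 at -1.43 and Krt19 at -0.88 on the log2 scale. Of 12393 genes by their brightest probe sets, 3012 had an unadjusted p under 0.05 and 288 fell by the adjusted test (limma). Larger changes that did not pass, named after their values were seen, were those of Bnc1 (9.13-fold lower), Upk3b (4.91-fold lower) and Krt7 (4.0-fold lower). On these, id8 replicate 3 lay between 1.51 and 2.38 below the other id8 arrays. Summed on the linear scale, these 9 markers gave 28764 and 23825 on the ASid8 arrays and 73633, 73808 and 41362 on id8 replicates 1, 2 and 3. The 2 markers that were higher on average were Msln and Cdh1, also named after their values were seen. Msln, a mesothelial marker, read 12.30 and 12.72 in ASid8 and 12.45, 12.51 and 11.46 in id8, a change of 0.37 (SE 0.39). Cdh1 (5.80 and 5.79 in ASid8, 5.73 to 5.75 in id8) was low in both groups, and Lrrn4 was not measured. Of the measured markers of other cell types (8 for macrophages, 7 for lymphocytes, 3 for red cell precursors, 4 for adipocytes and 5 for endothelium), 0 passed the test (limma; 1, a lymphocyte marker, at an unadjusted p under 0.05). The macrophage markers summed to 571 and 470 on the ASid8 arrays and 442 to 514 on the id8 arrays, and the adipocyte markers summed to 65 and 65 on the ASid8 arrays against 62 to 65 on the id8 arrays. Whether the shift in ID8 markers had a part in the results below was not tested.

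Transcripts of the polyunsaturated branch were lower after culture in ascites. Fads2 fell 6.31-fold, Fads1 2.54-fold and Elovl5 1.67-fold, and 4 of the 21 member probe sets fell while 0 rose (limma, adjusted p under 0.05 over all 22626 probe sets). In the same fit 1.96% of all probe sets fell and 2.38% rose. Each of the 21 member probe sets was lower on average in ASid8, with a median change of -0.74 on the log2 scale against 0.01 over all probe sets. At an unadjusted p under 0.05, 15 of the 21 were lower, where 22.9% of all probe sets passed that limit in either direction. In 17 of the 21, both ASid8 arrays lay below all id8 arrays, as they did for 17.2% of all probe sets. Probe sets of the same gene share their transcript, so the 21 are not independent measurements. In bulk RNA, fewer cells that express a gene and less of its RNA per cell cannot be told apart.

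These calls depended on which arrays were used. With id8 replicate 1 or id8 replicate 2 left out, 0 members passed (limma, lowest member adjusted p = 0.149 and 0.153). In those fits 0 of all probe sets passed. At an unadjusted p under 0.05, 13 and 13 member probe sets were lower, where 16.1% and 15.4% of all probe sets passed that limit in either direction. Leaving out ASid8 replicate 2 or ASid8 replicate 3 left no spread within that group. The brighter Fads2 probe set then changed by -2.62 and -2.70. Without id8 replicate 3, 12 members fell and 0 rose, where 8.25% of all probe sets fell and 7.48% rose. That fit takes its id8 spread from replicates 1 and 2 alone, which lay closer together than any other pair. With all arrays kept, 4 of 10 members fell when 1 probe set stood for each gene (2.59% of genes fell), 6 when the dimmest 25% were left out (3.84% of probe sets), 6 with equal array medians (3.14%), 6 with quantile normalization (2.78%) and 5 with a trended robust eBayes (1.62%). Array weights, which gave id8 replicate 3 a weight of 0.214, gave 12 members that fell, where 8.12% of all probe sets did. With id8 replicates 1 and 2 averaged to 1 array, 0 members passed (limma, lowest member adjusted p = 0.129, 13 lower at an unadjusted p under 0.05), and with the replicate block 0 passed (lowest member adjusted p = 0.279, 11 lower at an unadjusted p under 0.05). In those 2 fits 0 of all probe sets passed, and 16.3% and 15.1% of them had an unadjusted p under 0.05 in either direction.

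**Figure D1:**
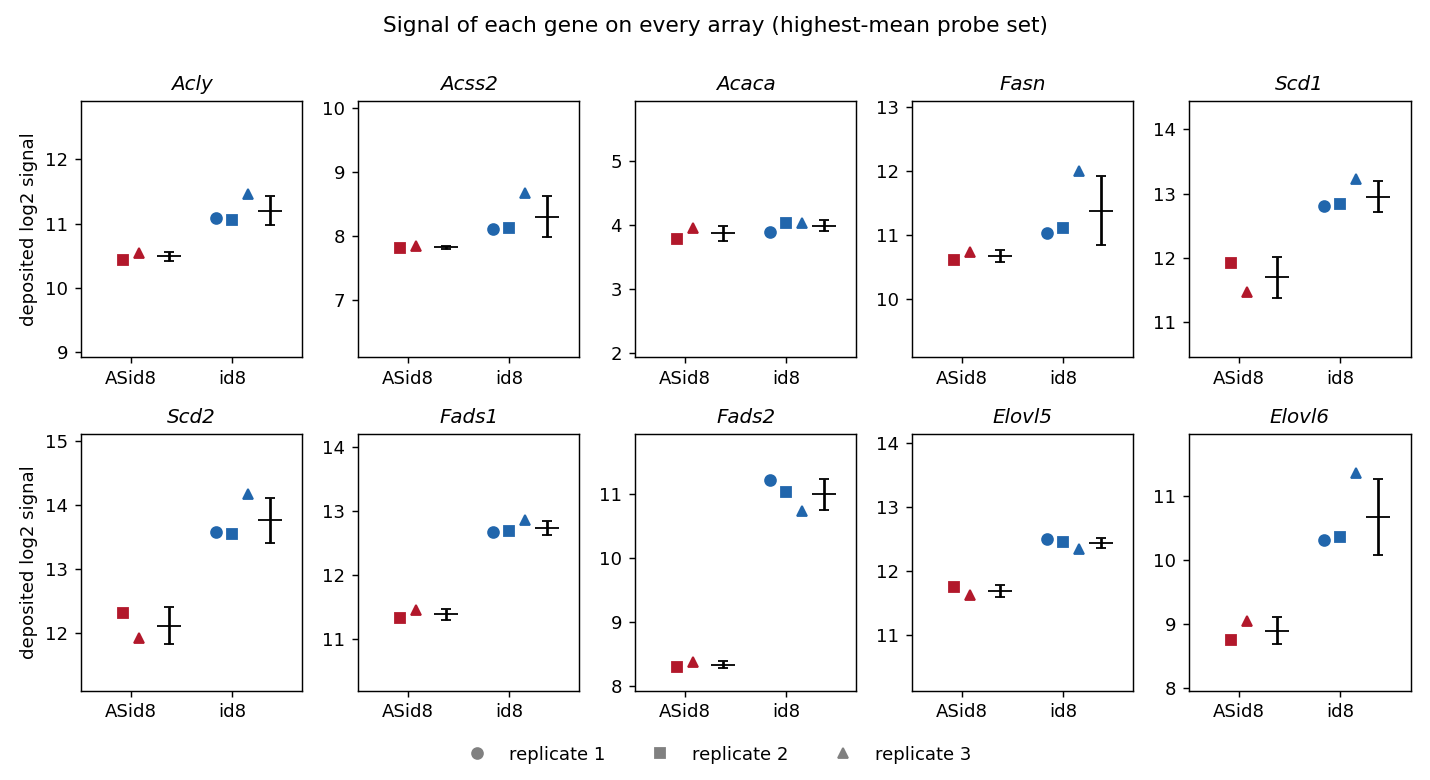
Deposited log2 signal (vertical axis) of each gene's brightest probe set on the ASid8 arrays (red, left) and id8 arrays (blue, right), with the mean and SD in black; every panel spans 4 log2 units. Fads2 shows the widest gap between the groups, while the id8 replicate 3 triangle stands above the other id8 points for Fasn and Elovl6.

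Fads2, the desaturase that opens the polyunsaturated branch, read 8.30 and 8.38 on the ASid8 arrays, against 11.22, 11.03 and 10.74 on the id8 arrays. The groups lay more than 2 log2 units apart and each varied little. The change was -2.66 (SE 0.16, 95% interval -3.08 to -2.23, limma adjusted p = 0.0173), which ranked 22 by size among the 444 probe sets that fell. Its other probe set, at 7.73 and 7.74 in ASid8 against 9.95, 9.95 and 9.77 in id8, fell by 2.15 (SE 0.08, limma adjusted p = 0.0131). Both probe sets therefore gave the same direction and passed. In both, id8 replicate 3 was the lowest id8 array, by 0.38 and 0.18 below the mean of the other id8 arrays. Leaving out each array in turn moved the brighter probe set's change only between -2.79 and -2.54.

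Fads1, the desaturase that completes arachidonate, lies on chromosome 19 with 1 annotated gene between it and Fads2. Its signal was 11.33 and 11.45 in ASid8, against 12.67, 12.68 and 12.86 in id8, so the groups did not overlap. It fell by 1.35 (SE 0.09, limma adjusted p = 0.0178), and its change stayed between -1.41 and -1.28 when each array was left out in turn. The fall of Fads2 exceeded that of Fads1 by 1.31 on the log2 scale, with every ASid8 array below every id8 array for this difference. The SD of this difference was 0.34 in id8 and 0.03 in ASid8. The exact two-sided permutation p was 0.1 (0.2 adjusted over 4 pairs), and 0.1 is the smallest that 2 against 3 arrays allow. Fads3, the related gene of the same family, was named after its values were seen. Its brighter probe set read 12.03 and 12.31 in ASid8 and 12.14, 12.29 and 12.27 in id8, a change of -0.06 (SE 0.11), and its other probe set changed by 0.05.

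Elovl5, the elongase between the steps of Fads2 and Fads1, moved less. The brighter probe set read 11.76 and 11.63 in ASid8 and 12.50, 12.45 and 12.35 in id8. It fell by 0.74 (SE 0.08, limma adjusted p = 0.0271). This is an x_at probe set, a class in which some probes can also match other transcripts. The other Elovl5 probe set read 11.24 and 11.18 in ASid8 and 11.97, 11.74 and 11.45 in id8, and its change of -0.51 (SE 0.17) did not pass (limma adjusted p = 0.181). Its ASid8 arrays also lay below every id8 array.

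The enzymes of monounsaturated fatty acid synthesis were lower by a similar amount, but none of their 7 probe sets passed the test over all probe sets. Scd2, a stearoyl-CoA desaturase, read 12.32 and 11.92 in ASid8 and 13.58, 13.54 and 14.17 in id8 on its brightest probe set. That is a change of -1.64 (SE 0.26, 95% interval -2.33 to -0.95), or 3.12-fold lower, with an adjusted p of 0.0519 by limma, just above the threshold. With 1 probe set per gene the same values gave 0.0463, which passed. The other Scd2 probe sets changed by -1.33 and -1.80, with adjusted p-values of 0.102 and 0.124 by limma.

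Scd1, its paralog, read 11.92 and 11.47 in ASid8 and 12.80, 12.83 and 13.23 in id8. Its change was -1.26 (SE 0.21, limma adjusted p = 0.0577), and that of its dimmer probe set was -1.49 (SE 0.42, limma adjusted p = 0.135). The brighter one passed with array weights (limma adjusted p = 0.0189) and without id8 replicate 3 (limma adjusted p = 0.0499). With a trended robust eBayes or 1 probe set per gene it did not (limma adjusted p = 0.0526 and 0.0523). Both ASid8 arrays lay below all id8 arrays on each of the 5 Scd1 and Scd2 probe sets. The change of Scd2 exceeded that of Scd1 by 0.38, with an SD of the difference of 0.12 in id8 (exact two-sided permutation p = 0.1, 0.2 adjusted over 4 pairs). Close paralogs may not be fully separated by probe sets. Scd3, a paralog named after its values were seen, read 5.42 to 5.81 on its brighter probe set, which changed by 0.13. Its other probe set read 4.04 on all arrays, a change of 0.00.

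Elovl6, which lengthens palmitate, had the largest spread among the id8 arrays of the brightest probe sets of these 10 genes. It read 8.75 and 9.05 in ASid8, against 10.31, 10.36 and 11.36 in id8. The ASid8 arrays were below all id8 arrays, and id8 replicate 3 stood 1.02 above the mean of the other id8 arrays. The change was -1.78 (SE 0.38, limma adjusted p = 0.0872). The other probe set read 7.33 and 7.35 in ASid8 and 8.83, 8.92 and 10.02 in id8, with a change of -1.92 (SE 0.41, limma adjusted p = 0.088). Without id8 replicate 3 the changes were smaller, -1.44 and -1.53, and both passed (limma adjusted p = 0.0204 and 0.0104). Elovl6 changed by 1.04 more than Elovl5, with an SD of that difference of 0.67 in id8 (exact two-sided permutation p = 0.2, 0.267 adjusted over 4 pairs).

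**Figure D2:**
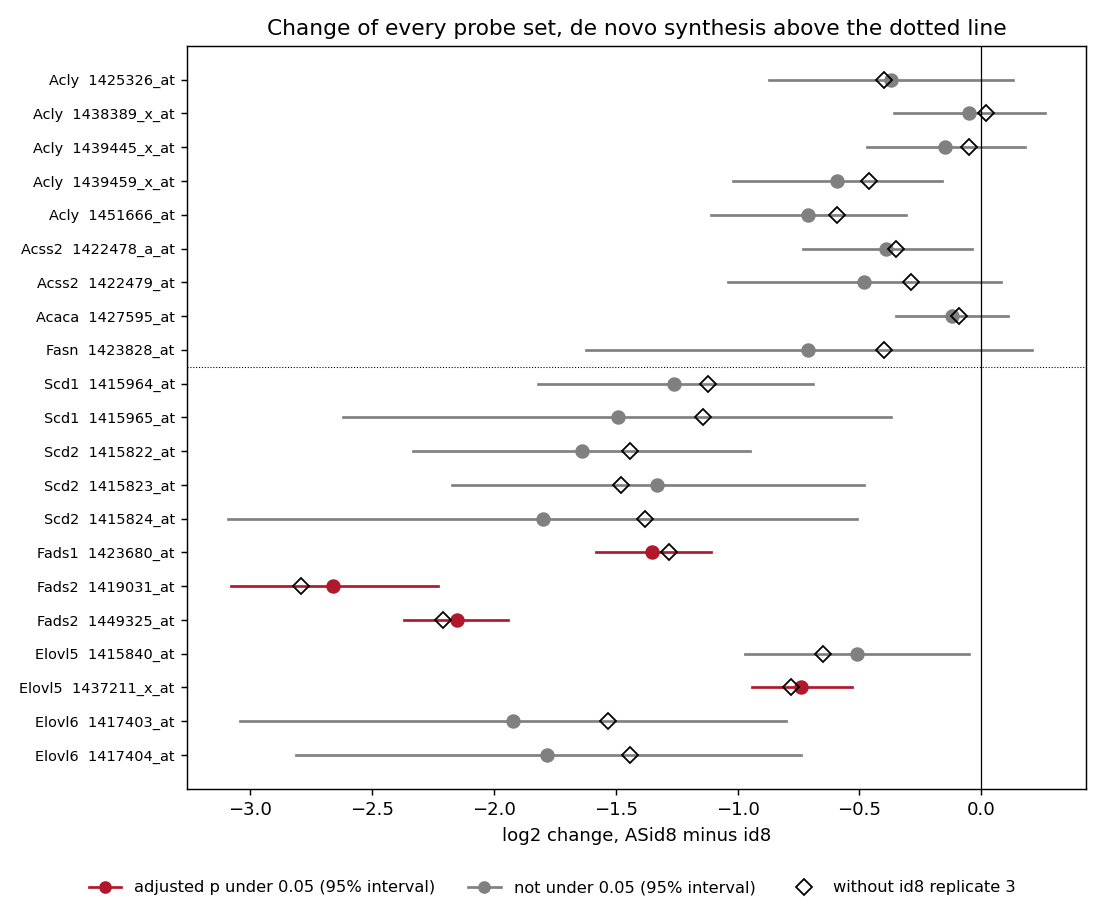
Log2 change (horizontal axis, ASid8 minus id8) of all 21 probe sets with 95% intervals from limma, in red where the adjusted p was under 0.05, and the change without id8 replicate 3 as open diamonds. The red points are both Fads2 probe sets, Fads1 and 1 of 2 Elovl5 probe sets.

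The de novo synthesis enzymes were on average lower by less, and 0 of their 9 probe sets passed by limma (3 had an unadjusted p under 0.05). Fasn, which assembles palmitate, read 10.61 and 10.74 in ASid8, against 11.04, 11.11 and 12.00 in id8. The groups did not overlap, but id8 replicate 3 stood 0.93 above the mean of the other id8 arrays, more than the distance from those arrays to ASid8. The change was -0.71 (SE 0.34, 95% interval -1.62 to 0.21, limma adjusted p = 0.324), and -0.40 (SE 0.07, limma adjusted p = 0.0521) without that array.

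Acly, the source of acetyl-CoA from citrate, had 5 probe sets. The brightest read 10.44 and 10.54 in ASid8 and 11.09, 11.06 and 11.46 in id8, a change of -0.71 (SE 0.15, limma adjusted p = 0.0823). The next brightest, of the x_at class, changed by -0.59 (SE 0.16, limma adjusted p = 0.127), and neither overlapped between groups. Another, at 8.16 and 8.60 in ASid8 and 8.96, 8.60 and 8.68 in id8, did overlap and changed by -0.37 (SE 0.19). The remaining x_at probe sets stayed between 2.85 and 3.26 on all arrays, among the dimmest 25% of all probe sets, and give no usable level. Without id8 replicate 3 the brightest probe set passed, at -0.59 (limma adjusted p = 0.0211).

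Acss2, which makes acetyl-CoA from acetate, read 7.81 and 7.84 in ASid8 and 8.11, 8.13 and 8.68 in id8. Its change was -0.48 (SE 0.21, limma adjusted p = 0.275), and that of its other probe set was -0.39 (SE 0.13, limma adjusted p = 0.179). The ASid8 arrays lay below the id8 arrays on both. Without id8 replicate 3 the change of the brightest probe set was smaller, -0.29, and passed (limma adjusted p = 0.0312). Acaca, acetyl-CoA carboxylase alpha, had only 1 probe set, at 3.79 and 3.95 in ASid8 and 3.89, 4.04 and 4.04 in id8. It also lay among the dimmest 25%, so its change of -0.12 (SE 0.09, 95% interval -0.35 to 0.11) gives no usable measure of this enzyme.

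Set against each other, the 6 desaturase and elongase members were on average lower by more than the 4 de novo members on both ASid8 arrays. Elovl5 did not follow this: its brightest probe set changed by -0.74, beside -0.71 for those of Acly and Fasn. With each gene given by its brightest probe set, the mean deviation from the id8 mean over the 6 desaturase and elongase genes was -1.53 and -1.61 on the ASid8 arrays and between -0.11 and 0.19 on the id8 arrays. Over the 4 de novo genes it was -0.56 and -0.45 on the ASid8 arrays, and -0.19, -0.14 and 0.32 on id8 replicates 1, 2 and 3. The difference between the sets was -0.97 and -1.16 on the ASid8 arrays (mean -1.06) and 0.11, 0.02 and -0.13 on the id8 arrays (SD 0.12). Without Acaca, whose probe set was dim, it was -0.94, and without id8 replicate 3 it was -1.13. No p is given for this score because its genes were chosen with results of these data known. It covers these members only. Further measured genes, described below, had median changes of -0.13 (desaturation and elongation) and 0.06 (de novo synthesis).

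Averages over the monounsaturated and polyunsaturated branches lay close together on the ASid8 arrays. This division was made after the values were seen and is a description. Scd1, Scd2 and Elovl6 averaged -1.47 and -1.65 on the ASid8 arrays, and -0.23, -0.22 and 0.46 on the id8 arrays. Fads1, Fads2 and Elovl5 averaged -1.59 and -1.57 on the ASid8 arrays, and 0.07, 0.00 and -0.07 on the id8 arrays. The small id8 values of the polyunsaturated branch average over genes that went opposite ways in id8 replicate 3, with Fads1 0.18 above and Fads2 0.38 and Elovl5 0.12 below the mean of the other id8 arrays. By gene, the id8 SD was 0.24 for Fads2, which passed in the main fit, and 0.24 for Scd1, which came just short there (limma adjusted p = 0.0577).

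**Figure D3:**
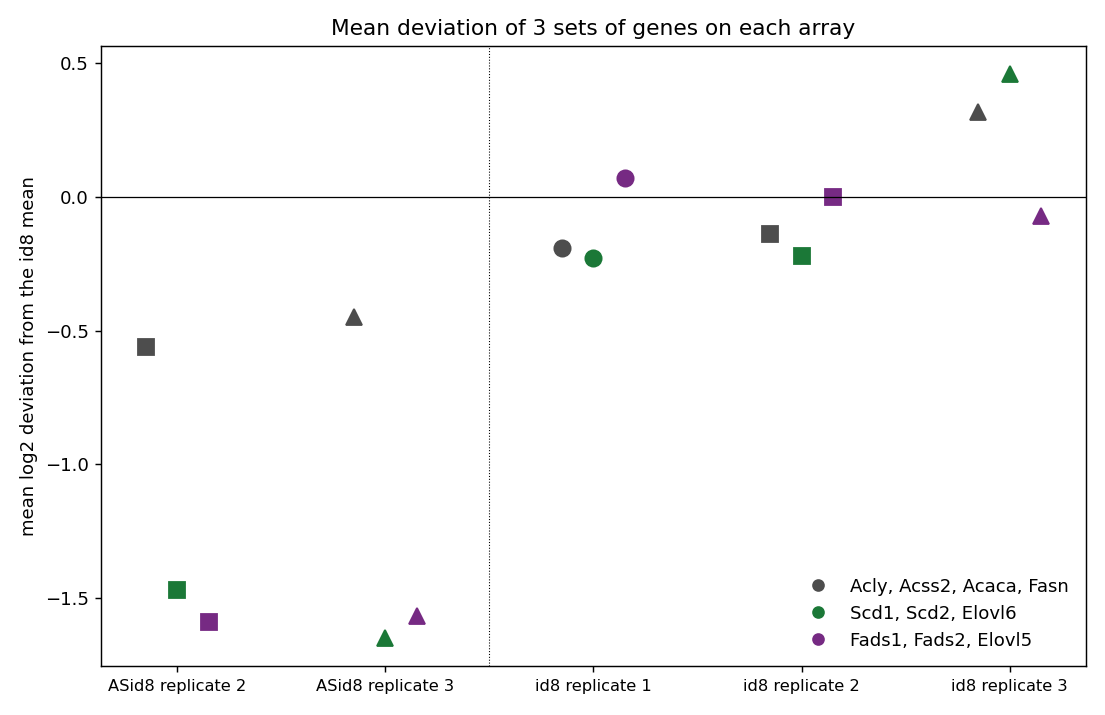
Mean log2 deviation from the id8 mean (vertical axis) of de novo, monounsaturated and polyunsaturated branch genes on each array, brightest probe set per gene. Both desaturase and elongase sets lie between -1.65 and -1.47 on the ASid8 arrays, and id8 replicate 3 is raised for the de novo (0.32) and Scd and Elovl6 (0.46) sets.

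Within the id8 group, replicate 3 lay above all other arrays for 14 of the 21 member probe sets, a position it held for 25.1% of all probe sets, with ties not counted in either. Its deviation from the mean of id8 replicates 1 and 2 had a median of 0.28 over the members and 0.01 over all probe sets. It reached 1.27 on 1 Scd2 probe set, 1.14 on 1 Elovl6 probe set and 1.05 on 1 Scd1 probe set, while the third Scd2 probe set went the other way (-0.46). Probe sets of Scd2 thus disagreed about replicate 3 although all were lower in ascites. For the Fads2 and Elovl5 probe sets the deviation lay between -0.41 and -0.12. The labels give no reason for the deviation of this array, and the cause was not tested.

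**Figure D4:**
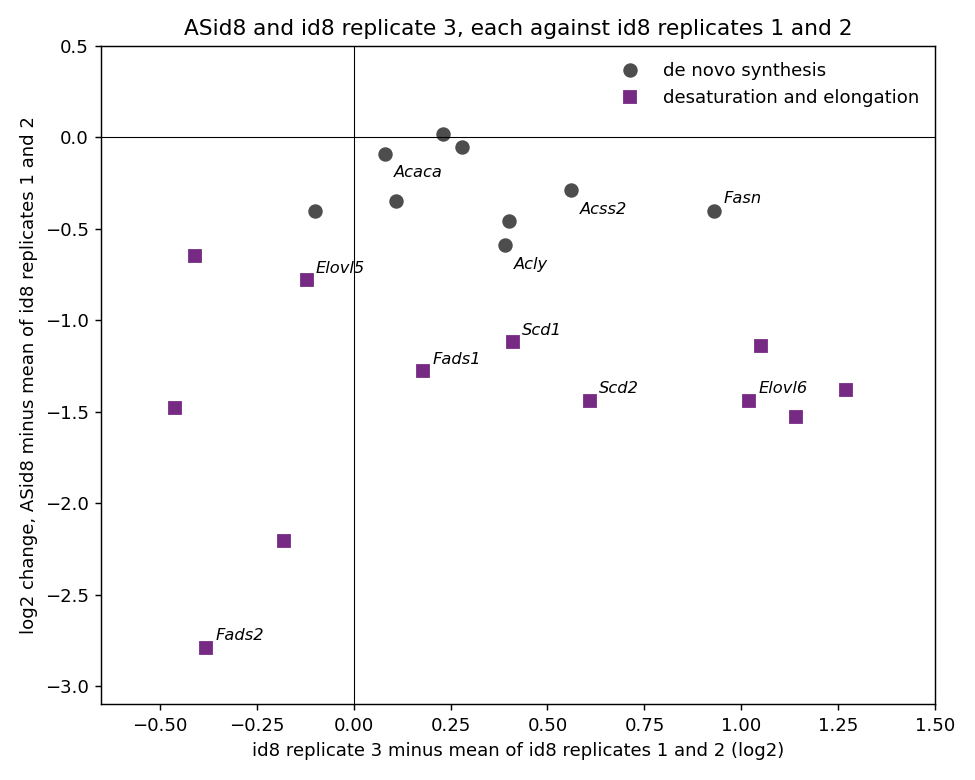
Each of the 21 probe sets by the log2 difference of id8 replicate 3 (horizontal axis) and of the ASid8 mean (vertical axis) from the mean of id8 replicates 1 and 2, which both axes share; named points are the brightest probe sets. Elovl6 and Fasn lie near 1 on the horizontal axis, while Fads2, at -2.79 on the vertical axis, lies left of 0.

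Genes with profiles most like Fads2 and Fasn were sought among the brightest probe sets of all other genes, by the root mean square distance of the values over the 5 arrays after each gene's mean was removed. Nearest to Fads2 were Scel (0.182 log2 units), Adamts7 (0.183), St8sia1 (0.183), Srebf2 (0.193) and Aldoc (0.211), which changed by -2.79, -2.86, -2.84, -2.60 and -2.26. Srebf2 encodes the SREBP2 transcription factor. Nearest to Fasn were Mcm3 (0.017), Fam111a (0.057), Mcm5 (0.058), Tlcd1 (0.070) and Fen1 (0.072). Mcm3 and Mcm5 are subunits of the replicative helicase. Mcm3 read 10.72 and 10.82 in ASid8 and 11.14, 11.23 and 12.13 in id8, with the same raised id8 replicate 3 as Fasn. With 5 arrays in 2 groups, such likeness is a description.

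Further genes listed with the pathway went both ways, many of them by little. Of 11 measured further genes of de novo synthesis, 4 were lower on average and 7 higher, with a median change of 0.06. Of these, 2 fell and 1 rose, where 2.32% of genes fell and 2.46% rose by their brightest probe sets in the same fit. Mcat (-0.07) and Olah (-0.04) were barely lower. Oxsm (0.01), Thrsp (0.06), Acss1 (0.07) and Cbr4 (0.10) were barely higher. These 6 were named after their values were seen. The list is not confined to cytosolic synthesis. Mid1ip1, which helps acetyl-CoA carboxylase to polymerise, read 11.98 and 12.02 in ASid8 and 12.76, 12.77 and 12.70 in id8, and fell by 0.74 (SE 0.05, limma adjusted p = 0.0188). Aacs, which activates acetoacetate for lipid synthesis, fell by 0.66 (SE 0.07, limma adjusted p = 0.0264) on its brightest probe set. Its other probe sets changed by -0.86 and -0.01 and did not pass. Mecr, the reductase of mitochondrial fatty acid synthesis, rose by 0.71 (SE 0.10, limma adjusted p = 0.0468) on its brightest probe set. This read 9.11 and 9.29 in ASid8 against 8.43, 8.41 and 8.63 in id8. Its other probe set changed by 0.68 (SE 0.18) and did not pass (limma adjusted p = 0.119). Me1, a cytosolic source of NADPH named after its values were seen, was higher by 0.71 (SE 0.15, limma adjusted p = 0.0871) on its brightest probe set, and its other probe set rose by 0.78 (SE 0.12, limma adjusted p = 0.0498). Acacb, the other acetyl-CoA carboxylase, also named after its values were seen, had a change of 0.22 (SE 0.28).

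Of 18 measured further genes of desaturation and elongation, 12 were lower, 6 were higher and 0 passed (limma), with a median of -0.13. By limma, 6 of them had an unadjusted p under 0.05, as did 3012 of 12393 genes by their brightest probe sets. The smallest p belonged to Hacd2, the dehydratase of the elongation cycle, which read 10.53 and 10.56 in ASid8 and 11.23, 11.23 and 11.60 in id8, a change of -0.81 (SE 0.14, limma adjusted p = 0.0615). Elovl7, an elongase named after its values were seen, went the other way. It read 9.05 and 9.12 in ASid8 and 8.16, 8.11 and 8.69 in id8, a change of 0.77 (SE 0.21, limma adjusted p = 0.127). Without id8 replicate 3, 4 genes of this list fell and 2 rose, where 1221 and 996 of 12393 genes did so. Of 13 measured acyl-CoA synthetases and fatty acid transporters, 1 fell and 0 rose, where 2.32% of all genes fell and 2.46% rose in the main fit. The gene that fell was Slc27a4, a fatty acid transport protein, at -0.52 (SE 0.06, limma adjusted p = 0.0281). Fabp5, a fatty acid binding protein, and Acsbg1, an acyl-CoA synthetase, had the largest changes of this list in each direction and were named after their values were seen. Fabp5 read 9.41 and 9.08 in ASid8 and 10.80, 10.67 and 12.14 in id8, a change of -1.96 (SE 0.52) that did not pass (limma adjusted p = 0.124). Acsbg1 read 8.94 and 9.40 in ASid8 and 7.66, 7.74 and 8.43 in id8, a change of 1.23 (SE 0.30) that did not pass either (limma adjusted p = 0.11). Neither gene overlapped between the groups. Such separation was common: both ASid8 arrays lay below all id8 arrays for 17.2% of all probe sets and above them for 19.3%. Of 12 measured genes of glycerolipid assembly, 11 were higher, 1 was lower and 0 passed (limma), with a median of 0.13. The 5 with an unadjusted p under 0.05 by limma included the 1 that was lower. Dgat2, which makes triglyceride from diglyceride, read 7.69 and 8.32 in ASid8 and 6.87, 6.99 and 6.96 in id8, a change of 1.06 (SE 0.20, limma adjusted p = 0.072). Its other probe set changed by 0.40 (SE 0.13).

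Of 10 measured regulators of lipid synthesis, 2 fell and 0 rose, where 2.32% of all genes fell and 2.46% rose by their brightest probe sets. Srebf2 read 7.95 and 8.11 in ASid8 and 10.59, 10.61 and 10.70 in id8, and fell by 2.60 (SE 0.08, limma adjusted p = 0.00914), and its other probe set fell by 1.88 (SE 0.08, limma adjusted p = 0.0141). Mlxipl, which encodes the carbohydrate-responsive factor ChREBP, read 7.27 and 6.70 in ASid8 and 8.70, 8.63 and 9.06 in id8. It fell by 1.81 (SE 0.23, limma adjusted p = 0.038). Srebf1, which encodes SREBP1 and was named after its values were seen, read 9.53 and 9.57 in ASid8 and 10.34, 10.35 and 10.96 in id8. It was 2.0-fold lower, with a 95% interval of the log2 change of -1.61 to -0.39, and did not pass (limma adjusted p = 0.0941). Pparg, which encodes a nuclear receptor that promotes fat storage and was also named after its values were seen, went the other way, with 7.24 and 7.20 in ASid8 against 5.70, 5.62 and 6.33 in id8. Its change of 1.34 (SE 0.25) did not pass (limma adjusted p = 0.0673), and without id8 replicate 3 it was 1.56 (limma adjusted p = 0.0104). For Srebf1, id8 replicate 3 lay 0.62 above the other id8 arrays, as it did for Fasn, Elovl6 and most Scd probe sets.

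**Figure D5:**
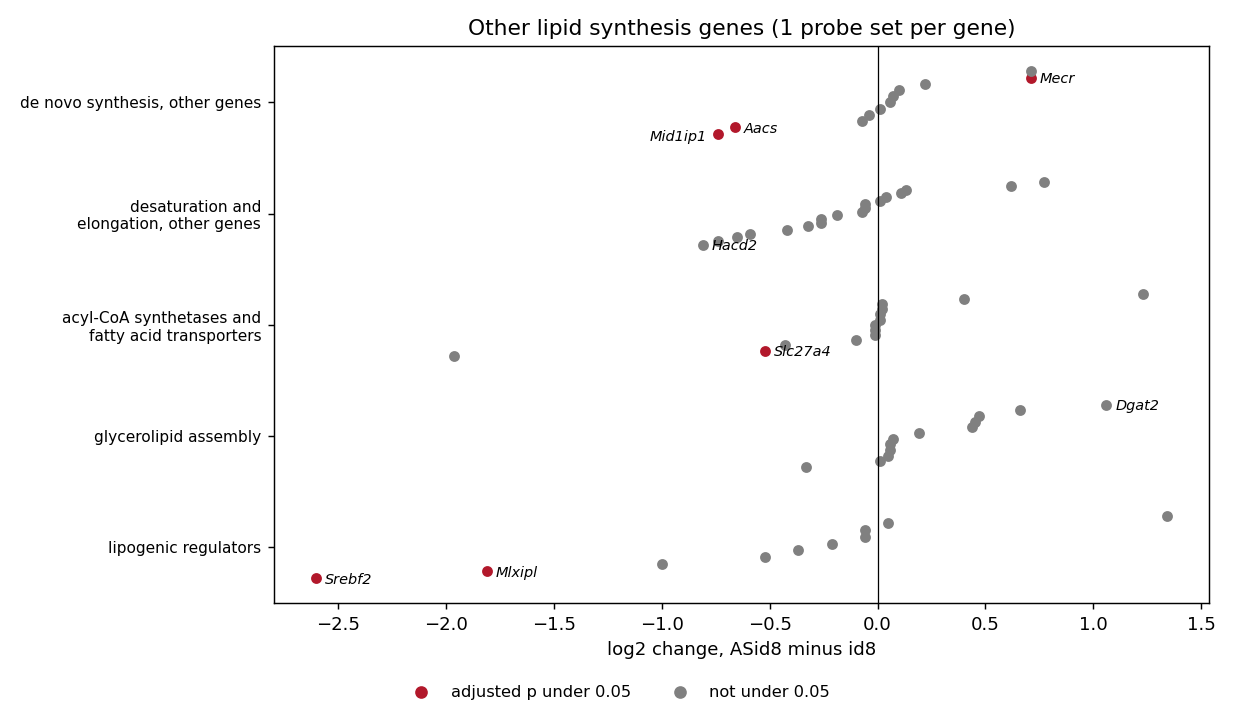
Log2 change (horizontal axis, ASid8 minus id8) of other lipid synthesis genes in 5 lists, 1 brightest probe set per gene, in red where the adjusted p was under 0.05. Srebf2 (-2.60) and Mlxipl (-1.81) lie farthest left among the red points, and Mecr (0.71) is the red point right of 0.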

How the data were processed

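Total RNA of ID8 cells was labelled with biotin and hybridised to Affymetrix mouse arrays. The deposited values are log2 signals with 1 value per probe set on each array, made by the authors with Affymetrix Expression Console per the submitters' processing notes. The log2 scale was judged from the values. Neither the program's version nor the background and summarisation methods were given in the sources used here. Array medians lay between 7.39 and 7.47, so no further normalization was applied. Any overall change of RNA content is invisible if the arrays were scaled to each other before deposit. Detection calls were not used here, so the number of arrays and an unknown background limit the precision.

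Of 22690 probe sets, 64 array controls were left out. The platform annotation, which can be old, gave 1 gene for 20380 of the others, several for 691 and none for 1555. Of the 20380, 20351 matched RefSeq (GRCm38.p6) by Entrez identifier, and 0 symbols changed. The test was limma 3.58.1 (R 4.3.3), with lmFit followed by eBayes and group as the sole term, two-sided (3 residual and 1.31 prior degrees of freedom), with Benjamini-Hochberg adjustment over all 22626 probe sets and a threshold of 0.05. On simulated data for this comparison over 22626 probe sets, with independent noise, the fit recovered 67 of 100 probe sets changed by 1 and 93 of 100 changed by 2 on the log2 scale, with 2 false calls. Probe sets with the widest spread were not among those changed, and no array was made to stand apart. These rates therefore do not cover such cases. Exact permutation tests compared 4 pairs of members, and p-values were adjusted over all 4. Fasn against Acaca is not reported, since Acaca was too dim. Alternatives were leaving out each array, a replicate block, averaging id8 replicates 1 and 2, 1 probe set per gene, leaving out the dimmest 25%, quantile normalization, equal medians, array weights, and a trended robust eBayes.

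The members and gene lists were chosen with earlier results of these data known. Named genes are all members, of each further list up to 4 that passed or the smallest p where none did, and the 5 nearest profiles to Fads2 and Fasn. Other named genes are marked as chosen after their values were seen. Scd4, Slc25a1, Hsd17b8, Acsl1, Acsl3, Slc27a6, Agpat2, Agpat4, Gpat2, Gpat3, Insig1, Mbtps2, Nr1h2, Prkaa1, Prkaa2 and Prkab2 had no probe set annotated to them alone and were not analysed here.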

Additional observations from a re-analysis of the deposited data

How the results depend on the processing

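The number of member probe sets that fell was 4 of 21, where 1.96% of all probe sets fell. It was 4 of 10 with 1 probe set per gene, where 2.59% of genes fell. It was 5 or 6 with the dimmest 25% left out, a trended robust eBayes, equal medians or quantile normalization, where 1.62% to 3.84% of probe sets fell. The brightest Scd2 probe set joined the fallen ones in each of these 5 settings. The brighter Scd1 probe set also did so with the dimmest 25% left out, equal medians or quantile normalization (limma adjusted p = 0.0407, 0.0357 and 0.0404). The number was 12 with array weights, where 8.12% of all probe sets fell. It was 0 with id8 replicates 1 and 2 averaged and 0 with the replicate block (limma; 13 and 11 members at an unadjusted p under 0.05), and between 0 and 12 with each array left out in turn. Of all 22626 probe sets, 982 (4.34%) were called. With 1 probe set per gene, 654 of 12393 (5.28%) were called. Of the 22626, 3728 (16.5%) were called with array weights and 1488 (6.58%) with equal medians. None were called with id8 replicates 1 and 2 averaged (3680 at an unadjusted p under 0.05 by limma) or with the replicate block (3417). With 1 id8 array left out, the number lay between 0 and 3559. Same-numbered arrays did not deviate together (correlations of 0.03 and 0.05 over probe sets), so the shared numbers 2 and 3 were not taken as pairs. The difference between desaturases with elongases and de novo enzymes was -1.06, and was -0.90 with medians over genes, -0.94 without Acaca (chosen after the data were seen) and between -1.16 and -0.97 with each array left out. Over single member probe sets and settings, 210 values kept their direction and side of the threshold, 24 lost the call and 24 gained it. The exception in direction among the 210 was 1 dim Acly probe set, whose change was 0.00 with array weights. The change of that probe set lay between -0.14 and 0.02 with each array left out, and was above 0 without id8 replicate 3. The causes of these changes were not tested. With scans and detection calls not used here, Acaca and the dim Acly probe sets cannot be placed above background.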
